A study of Mus musculus with 6 samples.

Results

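The 40 genes described here make, move, sense and break down the monoamines serotonin, dopamine, noradrenaline and adrenaline. They come from a named list of 14 serotonin receptors, 5 dopamine receptors, 8 adrenergic receptors, 5 transporters, 6 synthetic enzymes and 2 degrading enzymes, and 40 of 40 were found among 21887 protein-coding genes of RefSeq GRCm38.p6. The list was drawn up by function with the peak calls of these libraries in view, so the counts of calls below describe it and test nothing. Their chromatin was read in neural stem and progenitor cells from the forebrain of E13.5 mice, grown with EGF and FGF to passage 2 or 3. The cells were kept for 24 h with water (the control) or with 10 mM crotonate, a short-chain fatty acid salt that feeds histone crotonylation. CUT&Tag, in which an antibody tethers a transposase to chromatin, was run on 100000 cells per assay with antibodies to H3K4me3 and H3K27me3, giving 1 library per mark and treatment. The sources used here do not name the strain or the number of embryos, and 2 IgG samples of the series were not analysed here. With 1 library a group there is no replicate check, no p-value is given, and each difference below is one between 4 peak lists.

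A gene was counted as marked where a peak of the authors' list reached within 2 kb of either annotated end. A mark was gained when this held with crotonate and not with water, and lost in the opposite case. The lists were of unequal length, with 13221 and 16007 H3K4me3 peaks and 7643 and 15879 H3K27me3 peaks with water and crotonate. Their median −log10 q was 37.7 and 57.5 for H3K4me3 and 4.75 and 4.16 for H3K27me3. A higher −log10 q in 1 list is therefore not read as a change below. Depth was estimated from the peak values by reading fold enrichment as pileup + 1 over local background + 1, which is an assumption. Under it the crotonate libraries came out at 1.16 times (H3K4me3) and 0.811 times (H3K27me3) the depth of the water libraries, over a background 1.8 times as deep, so a peak missing from 1 list may lie just under its threshold. Of 13 progenitor marker genes, 11, among them Sox2 and Nes, carried H3K4me3 at an end in both conditions. Pax6 and Msi1 carried it inside the gene. Over all genes, 54.1% carried it at an end with water and 58.2% with crotonate. Of the markers of cells that progenitors can give rise to, H3K4me3 with water was found at 5 of 7 for neurons, 3 of 5 for oligodendrocyte lineage and 1 of 4 for astrocytes. Of those of other cell types it was found at 0 of 5 for microglia, 1 of 4 for endothelium (Kdr), 0 of 5 for fibroblasts and 0 of 4 for neural crest. With crotonate it was also at the fibroblast gene Col1a1 and the oligodendrocyte gene Mbp. H3K27me3 was gained at 1 gene of each of the last 4 lists (Tmem119, Cldn5, Dcn and Sox10) and at the neuron gene Syt1. Over all genes, 3.19% gained H3K27me3 and 4.18% H3K4me3. The part of other cell types in the results below was not tested.

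Monoamines are released by small groups of neurons whose cell bodies lie mostly in the midbrain, hindbrain and adrenal or sympathetic system, and act on receptors spread through the forebrain. Th makes the dopamine precursor and Tph1 or Tph2 the serotonin precursor, Ddc completes both amines, Dbh turns dopamine into noradrenaline and Pnmt makes adrenaline. Vesicular carriers (Slc18a1, Slc18a2) load the amines, plasma membrane carriers (Slc6a2, Slc6a3, Slc6a4) take them back up, and the monoamine oxidases Maoa and Maob degrade them. H3K4me3 marks active and poised promoters, H3K27me3 is placed by Polycomb complexes over silent developmental genes, and a promoter with both is called bivalent. In a population of cells, both marks on 1 chromosome and the marks in different cells cannot be told apart.

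With water, H3K27me3 was found at more of the genes than H3K4me3. H3K27me3 lay at an end of 23 of 40 (57.5%, with an exact Clopper-Pearson 95% interval 40.9 to 73.0, for counting error only), against 9.45% of all genes, and at 19 of 40 with only peaks of −log10 q of at least 5 or of fold enrichment of at least 5. H3K4me3 lay at an end of 12 of 40 (interval 16.6% to 46.5%), against 54.1% of all genes. In full, 15 genes carried H3K27me3 only, 8 both marks at the same end, 4 H3K4me3 only and 13 neither (40.9% of all genes). After crotonate these numbers were 12, 16, 5 and 7 (37.0% of all genes had neither), with H3K27me3 at 28 genes (12.3% of all genes) and H3K4me3 at 21 (58.2%). Genes with both marks thus went from 8 to 16 of 40, while over all genes the share went from 3.85% to 6.81%. Some of the 8 rested on weak peaks: with only peaks of −log10 q of at least 5, the genes with both marks numbered 4 in water and 12 with crotonate. The state differed between the lists for 14 of 40 genes (35.0%), against 7.66% of all genes.

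**Figure D1:**
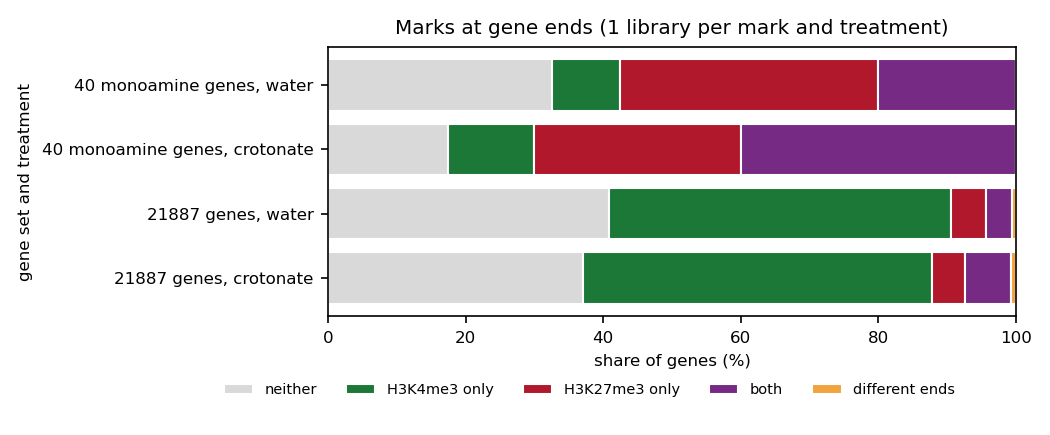
Share of genes (horizontal axis, %) in each state at their ends, for the 40 monoamine genes and all 21887 protein-coding genes, with water and crotonate, as stacked bars with 1 library per mark and treatment and no error bar. Orange stands for the marks at different ends of a gene. The part with both marks spans 8 and then 16 of the 40 monoamine genes, and 3.85% and 6.81% of all genes.

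Gains outnumbered losses for both marks. H3K4me3 was gained at 9 genes (4.18% of all genes gained it), namely Slc6a3, Htr1d, Drd4, Htr2a, Htr1f, Htr7, Htr5b, Adra1b and Htr2c, and lost at 0 of 40, an upper limit of 7.5% taken as 3 counts of 40, or 8.81% by the exact interval (0.0503% of all genes lost it). H3K27me3 was gained at 6 genes (3.19% of all genes), namely Th, Htr1f, Dbh, Htr5b, Htr4 and Drd1, and lost at 1, Adra1a (0.384% of all genes). Each of the 9 and 6 gains rested on peaks with no overlapping peak in the water list. With only peaks of −log10 q of at least 5, the gains at Htr5b, Adra1b and Htr2c were not called for H3K4me3, nor those at Dbh, Htr5b, Htr4 and Drd1 for H3K27me3, nor the loss at Adra1a. The shares were also read by the state of a gene in water. Of the 15 genes with H3K27me3 only, 6 gained H3K4me3 (interval 16.3% to 67.7%), which is near the 37.7% of all 1110 genes in that state. Of the 13 genes with neither mark, 5 gained H3K27me3 (38.5%, 13.9 to 68.4) against 4.83% of 8946 genes, and 3 gained H3K4me3 (23.1%, 5.04 to 53.8) against 5.56%. Those 8946 genes were not matched to the monoamine genes in kind, and the list was drawn up with results of these data known, so a difference in these shares has no test.

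**Figure D2:**
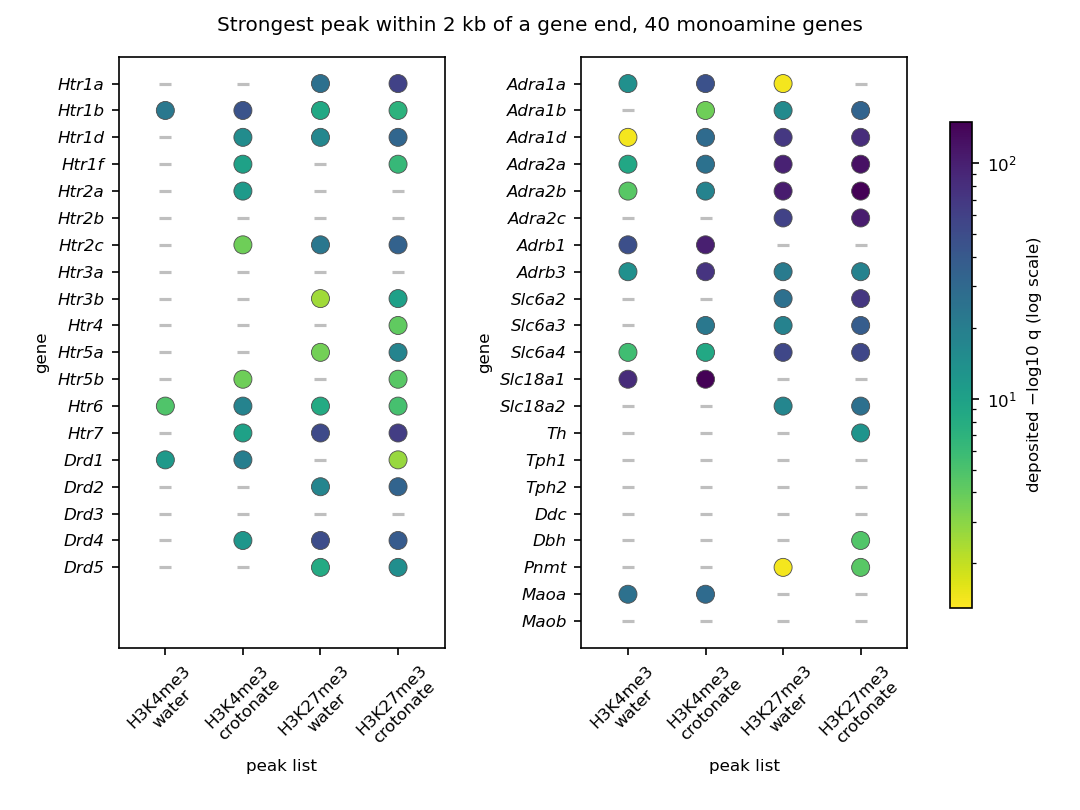
Each of the 40 genes (rows) in each of the 4 peak lists (columns), with a dot where a peak lies within 2 kb of a gene end, coloured by the highest deposited −log10 q on a log scale, and a dash where none does. The H3K4me3 column has 12 dots with water and 21 with crotonate, and the H3K27me3 column 23 and 28.

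The bases around an annotated start are shown for 6 of these genes, to let the promoters that gained a mark be read beside others. Slc6a3, Htr1d and Htr7 carried H3K27me3 over these bases in water and both marks with crotonate, Adra2a carried both marks each time, Th had neither mark in water and H3K27me3 with crotonate, and Tph2 had neither. Sequences are from RefSeq (GRCm38.p6), 5′ to 3′ on the gene's strand, from 250 bases before to 50 bases from the start on, with every CG pair in capitals. Of 2 annotated starts of Htr1d, the one richer in CG is shown. They lie at chr13:73536497-73536796 (plus strand, Slc6a3), chr4:136424362-136424661 (plus strand, Htr1d), chr19:36057311-36057610 (minus strand, Htr7), chr19:54045009-54045308 (plus strand, Adra2a), chr7:142899946-142900245 (minus strand, Th) and chr10:115184973-115185272 (minus strand, Tph2).
Slc6a3: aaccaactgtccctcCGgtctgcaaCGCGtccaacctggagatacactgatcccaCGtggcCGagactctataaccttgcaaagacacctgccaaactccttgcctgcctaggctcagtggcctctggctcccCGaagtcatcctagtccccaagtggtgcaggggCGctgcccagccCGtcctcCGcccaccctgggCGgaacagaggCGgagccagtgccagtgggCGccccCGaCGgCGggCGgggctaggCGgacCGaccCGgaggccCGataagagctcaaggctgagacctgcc
Htr1d: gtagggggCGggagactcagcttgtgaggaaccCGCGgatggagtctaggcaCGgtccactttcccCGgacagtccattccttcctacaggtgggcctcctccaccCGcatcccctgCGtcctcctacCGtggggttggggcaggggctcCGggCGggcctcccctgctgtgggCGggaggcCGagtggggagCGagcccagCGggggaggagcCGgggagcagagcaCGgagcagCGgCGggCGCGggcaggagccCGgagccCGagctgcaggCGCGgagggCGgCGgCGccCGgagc
Htr7: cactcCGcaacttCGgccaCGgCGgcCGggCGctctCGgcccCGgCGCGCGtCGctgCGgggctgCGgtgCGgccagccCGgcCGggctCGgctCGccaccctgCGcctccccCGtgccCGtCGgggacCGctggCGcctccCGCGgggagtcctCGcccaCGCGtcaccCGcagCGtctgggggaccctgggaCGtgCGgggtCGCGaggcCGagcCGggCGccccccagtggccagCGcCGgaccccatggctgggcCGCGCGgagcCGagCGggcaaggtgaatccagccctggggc
Adra2a: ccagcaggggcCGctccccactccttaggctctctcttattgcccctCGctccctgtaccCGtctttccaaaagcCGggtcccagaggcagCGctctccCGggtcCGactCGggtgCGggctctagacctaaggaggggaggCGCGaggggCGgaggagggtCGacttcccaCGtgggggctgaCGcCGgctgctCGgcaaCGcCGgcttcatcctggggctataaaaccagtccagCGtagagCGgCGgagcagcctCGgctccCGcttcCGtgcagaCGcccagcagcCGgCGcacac
Th: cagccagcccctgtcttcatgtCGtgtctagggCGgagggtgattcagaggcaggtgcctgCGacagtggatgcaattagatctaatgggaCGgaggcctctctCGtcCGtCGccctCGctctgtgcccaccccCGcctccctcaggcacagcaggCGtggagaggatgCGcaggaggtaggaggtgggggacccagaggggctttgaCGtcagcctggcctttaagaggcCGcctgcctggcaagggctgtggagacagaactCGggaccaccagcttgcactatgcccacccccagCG
Tph2: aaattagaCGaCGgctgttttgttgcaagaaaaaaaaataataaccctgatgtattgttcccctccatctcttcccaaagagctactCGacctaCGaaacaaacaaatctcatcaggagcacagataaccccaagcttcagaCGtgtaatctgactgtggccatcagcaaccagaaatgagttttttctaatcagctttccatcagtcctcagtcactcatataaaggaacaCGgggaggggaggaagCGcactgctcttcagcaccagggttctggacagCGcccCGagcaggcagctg
The CG pairs number 20 in Slc6a3, 28 in Htr1d, 46 in Htr7, 28 in Adra2a, 15 in Th and 9 in Tph2, against a median of 13 over 21263 annotated starts of protein-coding genes.

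**Figure D3:**
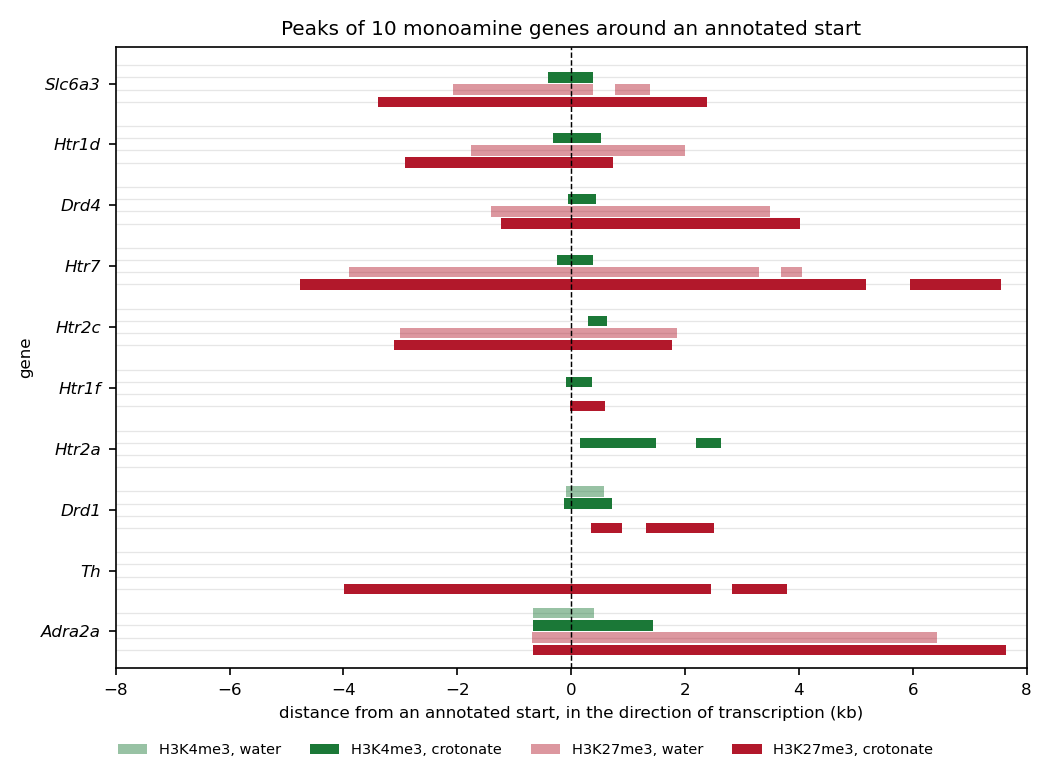
Peaks of 10 genes (rows) drawn to scale by distance from an annotated start in kb, along the direction of transcription, with H3K4me3 in green, H3K27me3 in red, water pale and crotonate full, and clipped at 8 kb. New H3K4me3 peaks of 0.334 to 0.841 kb sit inside longer H3K27me3 peaks at Slc6a3, Htr1d, Drd4, Htr7 and Htr2c.

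Serotonin receptors, 14 of the 40 genes, had 6 of the 9 gains of H3K4me3 and 3 of the 6 gains of H3K27me3. Over all genes, 4.18% gained H3K4me3 and 3.19% H3K27me3. Of the 6 receptors with H3K27me3 only in water, 3 gained H3K4me3, beside 37.7% of all genes in that state. Of the 6 with neither mark, 3 gained H3K4me3 and 3 gained H3K27me3, beside 5.56% and 4.83%. H3K4me3 was at 2 of the 14 receptors with water and 8 with crotonate (54.1% and 58.2% of all genes). H3K27me3 was at 8 and 11 (9.45% and 12.3%), and both marks at 2 and 7 (3.85% and 6.81%). Htr1b and Htr6 were the pair with both marks in each condition. Htr1b, a terminal autoreceptor that lowers cAMP, had H3K4me3 over 1.76 kb with water and 2.49 kb with crotonate. Its H3K27me3 peak measured 3.14 kb and then 2.14 kb beside a separate piece of 0.788 kb. Htr6, which raises cAMP, had H3K4me3 over 0.652 and 1.14 kb and H3K27me3 over 1.82 and 1.63 kb. At both receptors the longest H3K27me3 peak was shorter with crotonate. The H3K4me3 peak was longer, as at 95.3% of all genes with that mark in both lists. H3K27me3 cover of the gene and its 2 kb flanks went from 3.14 to 2.75 kb at Htr1b. At Htr6 it went from 1.82 to 2.0 kb, with a new peak of 0.369 kb inside the gene.

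Htr1d, Htr2c and Htr7 went from H3K27me3 only to both marks. Htr1d, a presynaptic receptor that lowers cAMP, lies on chromosome 4 from 136423522 to 136444405. Its new H3K4me3 peak spanned 136424291 to 136425131, with an authors' fold enrichment of 9.56 and −log10 q of 15.2, and covered the inner of its 2 annotated starts. The H3K27me3 peak around it measured 3.75 kb with water and 3.65 kb with crotonate. Htr7, which raises cAMP and is best known for circadian and mood control, had the longest H3K27me3 peak of the 40 genes in water, 7.19 kb, and 9.94 kb with crotonate. A new H3K4me3 peak of 0.624 kb (fold 8.18, −log10 q 9.93) lay over its annotated start, inside that domain. Htr2c, a phospholipase C-coupled receptor on the X chromosome, had H3K27me3 over 4.86 and 4.89 kb and a weak new H3K4me3 peak of 0.334 kb (−log10 q 3.69) starting 298 bp into the gene from its annotated start. All 3 new peaks lay wholly inside the H3K27me3 peak of the water list.

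Htr1f, Htr5b, Htr2a and Htr4 had neither mark in water. At Htr1f, which lowers cAMP, the nearest H3K27me3 peak in water was 588 kb away, and with crotonate its start lay under a new H3K4me3 peak of 0.465 kb (−log10 q 9.93) and a new H3K27me3 peak of 0.61 kb (6.23). Htr5b showed a similar pair of short peaks, with H3K4me3 of 0.437 kb (3.73) and 3 H3K27me3 peaks of 0.44 to 0.665 kb at the same end. Htr2a, the phospholipase C-coupled receptor on which classical psychedelics act, gained H3K4me3 alone. Its peak of 1.34 kb (fold 8.35, −log10 q 11.5) began 159 bp past the annotated start, a second of 0.45 kb followed inside the gene, and no H3K27me3 peak lay within 419 kb. Htr4, which raises cAMP, gained H3K27me3 alone, as a peak of 0.438 kb (4.16). From neither mark, Htr1f and Htr5b thus went to both marks, Htr2a to H3K4me3 only and Htr4 to H3K27me3 only.

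The other receptors of the family kept their state. Htr1a, the main somatodendritic autoreceptor, had H3K27me3 of 3.04 kb with water and 5.29 kb with crotonate, without H3K4me3 within 149 kb in either list. Htr5a, also coupled to lower cAMP, had H3K27me3 of 2.2 kb in water, and 2 pieces of 0.696 and 1.64 kb with crotonate. Htr2b and the ion channel subunit gene Htr3a had no peak of either mark at an end in either list. The partner subunit gene Htr3b had H3K27me3 at its far end alone, 0.418 kb with water and 2.72 kb with crotonate, away from its annotated start. The 2 kb window decides these neighbours: the H3K27me3 peak nearest to Htr3b lay 1.43 kb from the gene with water and 1.1 kb with crotonate, whereas the one nearest to Htr3a lay 20.7 and 2.4 kb away.

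Dopamine receptors carried H3K27me3 at 3 of 5 genes with water and 4 with crotonate (9.45% and 12.3% of all genes). They carried H3K4me3 at 1 and 2 (54.1% and 58.2% of all genes). Drd4, a cAMP-lowering receptor of cortex on chromosome 7 from 141291974 to 141296464, gained a H3K4me3 peak of 0.492 kb (fold 8.57, −log10 q 12.4) over its start. H3K27me3 covered 57.8% of the gene with 2 kb either side with water and 62% with crotonate, and this peak also reached the neighbouring gene Deaf1. Drd1, the main striatal receptor that raises cAMP, had H3K4me3 at its start in both lists, over 0.676 kb (−log10 q 11.8) with water and 0.835 kb (20.1) with crotonate. It gained 2 weak H3K27me3 peaks of 1.2 kb (2.68) and 0.55 kb (2.27), where the nearest peak in water had been 137 kb away. Drd2, the cAMP-lowering autoreceptor, and Drd5, a cAMP-raising receptor, kept H3K27me3 alone. At Drd2 the peak measured 4.43 and 5.83 kb, and at Drd5 1.51 and 3.38 kb. Drd3, a limbic receptor, had no peak of either mark at an end, and its nearest H3K27me3 peak was 5200 kb away with water.

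Adrenergic receptors were the group with most bivalent genes in water, 5 of 8 (3.85% of all genes). The number was again 5 with crotonate (6.81% of all genes), with a change of members. Some of these calls rested on weak peaks in water. Their −log10 q was 1.42 for H3K27me3 at Adra1a, and 1.41 and 4.46 for H3K4me3 at Adra1d and Adra2b. Adra2a, Adra2b, Adra1d and Adrb3 carried both marks in both lists. Adra2a and Adra2b, alpha-2 receptors that lower cAMP, had H3K27me3 of 7.12 and 5.93 kb with water and 8.32 and 9.56 kb with crotonate. Their H3K4me3 peaks were 1.08 and 0.72 kb with water and 2.12 and 1.47 kb with crotonate, so a short H3K4me3 peak sat at the start of a longer H3K27me3 peak each time. Adra2c, the third gene of that kind, had H3K27me3 over 88.6% of the gene and its 2 kb flanks with water and 100% with crotonate, and no H3K4me3 within 31.6 kb. The 3 receptors therefore shared the Polycomb mark and differed in H3K4me3.

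At Adra1d, a calcium-mobilising receptor, H3K4me3 was at one end in water, at −log10 q 1.41, near the threshold of the list. After crotonate that peak measured 2.1 kb (28.9) and a further one of 0.624 kb (7.82) lay at the opposite end. Adrb3, the beta receptor of fat tissue, had H3K4me3 of 0.893 kb (−log10 q 14.2) and 1.78 kb (73.3) beside H3K27me3 of 3.73 and 4.86 kb. Adrb1, the beta receptor of heart and forebrain, was the adrenergic gene with H3K4me3 and no H3K27me3 in both lists, over 3.4 and 3.48 kb. It also had the highest H3K4me3 cover of the 40 genes, 48.3% of the gene and its flanks with water and 61.1% with crotonate. Adra1a, a calcium-mobilising receptor, had the single loss, of a H3K27me3 peak of 0.421 kb with −log10 q of 1.42, which is at percentile 0.811 of its list. Its H3K4me3 peak measured 0.698 kb with water and 1.48 kb with crotonate.

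Adra1b shows what the end-based rule can miss. By the rule it went from H3K27me3 only to both marks, through a H3K4me3 peak of 0.347 kb (−log10 q 3.69) inside a H3K27me3 peak of 2 kb in water and 4.05 kb with crotonate. That end is the far end of the gene, 60164 bp from the nearest annotated start. Its CG-rich start, with 28 CG pairs in 300 bases, lies inside the gene span and was covered by a H3K4me3 peak in both lists, of 0.525 kb (5.59) with water and 0.564 kb (16.8) with crotonate, with no H3K27me3 over those bases. With starts in place of ends, Adra1b was therefore a gene with H3K4me3 in both conditions.

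Among transporters, H3K27me3 was at 4 of 5 genes in both lists (9.45% of all genes with water and 12.3% with crotonate). Slc6a3, the dopamine transporter gene on chromosome 13 from 73536128 to 73578672, had the strongest H3K4me3 gain of the 40 genes. Its new peak, 73536337 to 73537138, covered the annotated start at 73536747, and its −log10 q of 22.4 was at percentile 29.9 of the crotonate list. In water the start lay in a H3K27me3 peak of 2.47 kb with a second of 0.602 kb downstream, and with crotonate in a single peak of 5.77 kb. Slc6a4, the serotonin transporter gene, had both marks in both lists. Its H3K4me3 consisted of pieces of 0.739 and 0.281 kb upstream of the start with water, the nearer 250 bp away, and of a single peak of 1.87 kb over the start with crotonate. Its H3K27me3 domain measured 7.03 and 8.99 kb, and 21.5% and 37.1% of the gene and its flanks were covered. Slc6a2, the noradrenaline transporter gene, and Slc18a2, the vesicular carrier of central neurons, kept H3K27me3 alone, over 3.99 and 6.24 kb and over 1.86 and 3.7 kb.

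Slc18a1, the vesicular carrier of endocrine cells, had a strong H3K4me3 peak of 1.78 kb (−log10 q 83.4) with water and 1.88 kb (146) with crotonate. The same peak lies at an end of Atp6v1b2, a proton pump subunit gene, and the lists cannot assign it to either gene. No H3K27me3 peak lay within 93.5 kb.

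H3K4me3 was at 0 of 6 synthetic enzyme genes in both lists (54.1% of all genes with water and 58.2% with crotonate). H3K27me3 was at 1 with water and 3 with crotonate (9.45% and 12.3% of all genes). Th, on chromosome 7 from 142892779 to 142899995, had no peak of either mark in water, the nearest being H3K27me3 at 64.1 kb. After crotonate a H3K27me3 peak of 6.44 kb (−log10 q 12.8) lay across its start with a second of 0.959 kb inside the gene, and together they covered 48.3% of the gene and its flanks. This was the longest gained peak of the 40 genes. Dbh gained 2 short H3K27me3 peaks of 0.449 kb (4.75) and 0.478 kb (3.36), 1 near each end. At Pnmt a weak H3K27me3 peak of 1.05 kb (1.42) with water and 0.653 kb (4.49) with crotonate also touched the end windows of Tcap and Pgap3.

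Tph1, Tph2 and Ddc had no peak of either mark at their ends or inside in any list. The nearest H3K4me3 peaks with water lay 4.18 kb from Tph1, 4.79 kb from Ddc and 65.3 kb from Tph2. Of the degrading enzymes, Maoa carried H3K4me3 of 2.47 kb (−log10 q 25.8) with water and 2.65 kb (29.1) with crotonate at its start, and its nearest H3K27me3 peak was 3270 kb away in water. Maob, its neighbour on the X chromosome, had no peak of either mark. The genes for both rate-limiting enzymes of serotonin synthesis were thus outside both marks. Of the 3 genes specific to catecholamine synthesis, Th and Dbh had H3K27me3 with crotonate alone and Pnmt in both lists, and the new peaks of Dbh did not reach the bases around its annotated start.

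The gained peaks were weak for H3K4me3. The strongest gained peak per gene had −log10 q of 3.69 to 22.4 (median 9.93, against 7.82 over all 915 genes that gained it), and 9 of 9 lay below the median of the crotonate list, 57.5. For H3K27me3 the range was 2.68 to 12.8 (median 4.62, against 4.16 over all 698 such genes), beside a median of 4.16 over all peaks of the crotonate list. Peaks present in both lists differed in length too. Of the 12 genes with H3K4me3 at an end in both lists, the longest such peak was longer with crotonate at 12, with medians of 0.816 and 1.87 kb, and over all genes this held at 95.3% of 11820, with medians of 1.71 and 2.2 kb. For H3K27me3 this held at 17 of 22 genes, with medians of 3.74 and 5.08 kb and Htr1b, Htr1d, Htr5a, Htr6 and Pnmt as exceptions, and over all genes at 82.1% of 1985, with medians of 3.66 and 5.02 kb. The shares of longer peaks were near those of all genes. Over whole lists the median peak length was 1508 and 1707 bp for H3K4me3 and 1087 and 828 bp for H3K27me3. The libraries differed in depth, and the part of depth in these lengths was not tested. At genes with H3K27me3 only in water, the gained H3K4me3 peak lay wholly inside the water H3K27me3 peak at 6 of 6 monoamine genes and at 73.2% of all 418 such genes.

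Base composition was read at the annotated starts, which the choice of genes did not use. RefSeq gave 36 starts for 30 of the 40 genes, each as 300 bases. CG pairs numbered a median of 4 at the 11 starts under neither mark with crotonate, and 24 at the 12 starts under both marks. Over all genes the medians were 3 and 23. Among starts with H3K27me3 only in water, the 5 that carried both marks with crotonate had a median of 20 CG pairs and the 8 that kept H3K27me3 alone one of 9.5. The corresponding medians over all genes were 21 (270 starts) and 12 (558 starts), so the medians of the monoamine starts followed the order seen across the genome. These classes are of starts and not of genes. Among the 8 were the outer start of Htr1d, with 7 CG pairs, and that of Htr2c, with 5, although both genes gained H3K4me3 at an end. Among the 5 were the inner start of Htr1d, with 28, and that of Htr6, with 10. Htr6 had both marks at an end in water. There were exceptions among single genes. Drd5, with 38 CG pairs, and Drd2, with 23, kept H3K27me3 alone, and the inner start of Tph1, with 19, had neither mark.

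**Figure D4:**
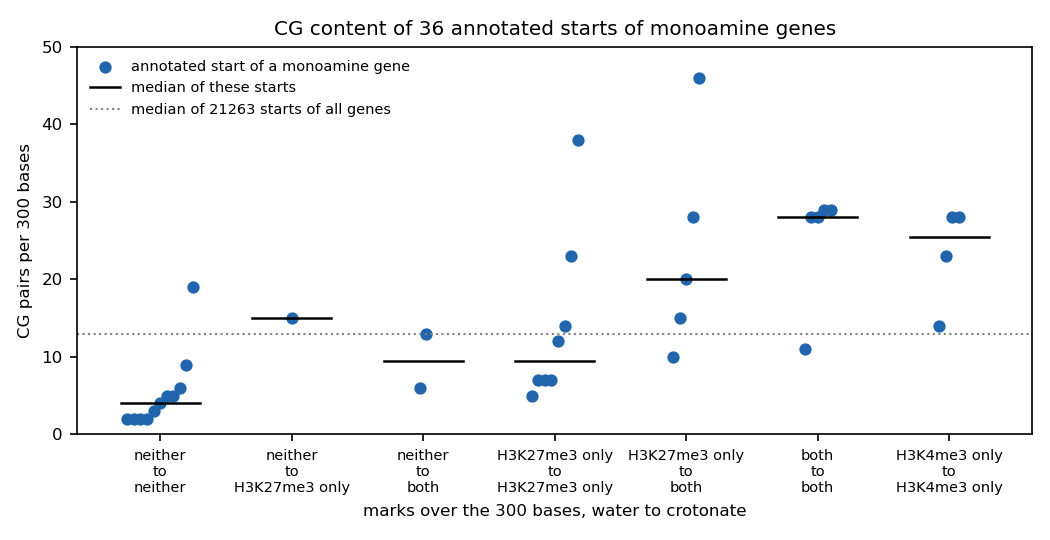
CG pairs per 300 bases (vertical axis) at 36 annotated starts of monoamine genes, grouped by the marks over those bases with water and with crotonate, with 1 point per start and a line at each group's median. The dotted line is the median of 13 over all 21263 starts, and starts that went from H3K27me3 only to both have a median of 20 against 9.5 for those that did not.

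Genes that work with the monoamine genes were read the same way. Of 23 transcription factor genes of monoamine neurons, 19 carried H3K27me3 with water and 20 with crotonate (9.45% and 12.3% of all genes). Both marks were at 6 and 11 (3.85% and 6.81% of all genes). H3K4me3 was gained at 4, namely Fev (the serotonergic master factor), En1 (a midbrain factor), Phox2a (a noradrenergic factor) and Lmx1a (a midbrain dopaminergic factor). These 4 were of 13 genes with H3K27me3 only, a state in which 37.7% of all genes gained H3K4me3. At Fev the new peak measured 0.788 kb (−log10 q 9.93) in a H3K27me3 domain of 26.0 and 29.9 kb. The new H3K4me3 peaks had −log10 q of 8.67 at En1 and 5.7 at Phox2a. At Lmx1a it was 2.82, with fold enrichment of 4.23, so that gain is a weak one. The domains of En1 (38.6 and 41.0 kb), Fev and Lmx1a (15.5 and 15.9 kb) were longer than any H3K27me3 peak at the ends of the monoamine genes, where the maximum was 7.19 kb in water and 9.94 kb with crotonate, while that of Phox2a (6.68 and 6.5 kb) was not. Nkx2-2, which patterns ventral neural tube, gained a H3K27me3 peak of 0.737 kb (2.3).

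Of 32 genes for cofactor synthesis, clearance and receptor signalling, 23 carried H3K4me3 with water and 27 with crotonate (54.1% and 58.2% of all genes). H3K27me3 was at 7 and 10 (9.45% and 12.3% of all genes). H3K4me3 was gained at 4 of the 32 and H3K27me3 at 3, beside 4.18% and 3.19% of all genes. Adcy2, an adenylate cyclase gene, gained both marks, Slc10a4, Rgs4 and Gnas gained H3K4me3, and Adcy1 gained H3K27me3. The new H3K4me3 peaks had −log10 q of 12.4 at Adcy2, 7.45 at Slc10a4, 5.14 at Rgs4 and 2.95 at Gnas. Those of H3K27me3 had 5.73 at Adcy2 and 6.23 at Adcy1. Gch1, which makes the cofactor that Th and the Tph enzymes need, had H3K4me3 of 1.12 and 1.59 kb and gained a H3K27me3 peak of 0.347 kb (2.3). Of 7 trace amine and histamine genes, 0 gained or lost a mark. Of 47 glutamate and GABA receptor genes, 28 carried H3K4me3 and 21 H3K27me3 in water, beside 12 and 23 of the 40 monoamine genes. Of their 8 genes with H3K27me3 only, 4 gained H3K4me3, beside 6 of 15 here and 37.7% of all genes in that state. Of 11 with neither mark 0 gained H3K27me3, beside 5 of 13 here and 4.83% of all genes in that state. Among 21 acetylcholine receptor genes 12 had neither mark in both lists (40.9% and 37.0% of all genes). Through weak peaks, 1 gained H3K4me3 (Chrna3, −log10 q 2.39) and 1 lost H3K27me3 (Chrm4, 1.82). The differences between these gene lists were not tested.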

How the data were processed

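CUT&Tag libraries of H3K4me3 and H3K27me3 were read as 4 peak lists. Per the submitters' processing notes, the tools were MACS2 2.2.7.1, Picard 2.22.0, Bowtie2 2.4.1 and SAMtools 1.10, with build GRCm38. What settings, duplicate handling and background library applied is not given in the sources used here. Per the file headers, the lists hold peak length, pileup (a signal scaled per library by the authors), −log10 of p and q, and fold enrichment (a ratio of summit signal to local background). Every deposited q was under 0.05. Values rank or describe peaks within 1 list, apart from alternatives that put 1 threshold on all lists.

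Genes came from RefSeq GRCm38.p6. Ends were taken with 2 kb either side and an overlap of at least 1 bp, with Python 3.11.15, numpy 2.4.6, pandas 2.3.3, scipy 1.17.1 and matplotlib 3.10.9. The state calls were tested on simulated data. Annotated starts and strand came from RefSeq promoter sequences of 300 bases, which covered 30 of the 40 genes. Relative depth was estimated from pileup steps and the lowest local background, under the form of fold enrichment given in the text, with which deposited −log10 p was recomputed within 1% for at least 99.5% of peaks. The 40 genes and the lists were chosen with earlier results of these data known. The rule for full values named each gene with a changed call or both marks, the enzymes and transporters, and the 5 longest H3K27me3 peaks in water. Other receptors, and further list genes, were named after their values were seen.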

Additional observations from a re-analysis of the deposited data

How the results depend on the processing

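Over 16 results and 9 alternative settings, 113 of 118 values stayed within 1.5 times the reported one. The exceptions were the number of genes with both marks in water, 8 as reported, which was 5 with peaks of fold enrichment of at least 5, 4 with −log10 q of at least 5, and 5 with only the end at the annotated start (30 genes with a start), and the single loss of H3K27me3, which was 0 with −log10 q of at least 5 and 0 with only the end at the annotated start. Some of the 118 pairs could not move. Values for water are fixed where lists are cut to equal length or crotonate peaks brought to the background depth of water. The results at an end and those at an end or inside the gene also overlap. A fall of exactly 1.5 times, as from 9 to 6 gains, was counted as within. The counts hide a change of genes. Of the 9 gains of H3K4me3, Slc6a3, Htr1d, Drd4, Htr2a, Htr1f and Htr7 were kept in all 8 settings that bear on them, and Adra1b, Htr2c and Htr5b were not. With −log10 q of at least 5, 6 of the 9 were kept and 3 added (Adra1d, Adra2b, Htr6), because the threshold drops their water peaks. Of the 6 gains of H3K27me3, Th and Htr1f were kept in all 8, and with −log10 q of at least 5 they were the 2 kept and Htr3b and Htr5a were added. With fold enrichment of at least 5, 3 were kept and Htr3b, Htr5a and Pnmt were added. With lists of equal length, 6 gains of H3K4me3 and 4 of H3K27me3 were kept. Crotonate peaks brought to the background depth of water, a setting added after seeing the data, kept all 9 and all 6. No paired analysis was possible because there is 1 library per mark and treatment. For the same reason no library could be left out.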

Other observations

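Inside the genes, away from both ends, H3K27me3 peaks numbered 4 in 3 genes after water and 18 in 10 genes after crotonate. Over all genes, 3.8% held such a peak after water and 6.76% after crotonate, and the crotonate list was the longer, with 15879 peaks against 7643. Adra1b had 4 of them after crotonate, of 0.476 to 0.936 kb, and Slc6a4 had 4, of 0.35 to 2.65 kb. H3K4me3 peaks inside the genes numbered 1 after water, at Adra1b, and 2 after crotonate, at Adra1b and Htr2a (7.2% and 10.3% of all genes held one).

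The letters TGACGTCA, the full cAMP response element, read the same on both strands. In the 300 bases around annotated starts they were found at 2 of 36 starts of monoamine genes (Th and Slc18a2). Over all genes they were found at 2.23% of 21263 starts. The letters TATAAA, on either strand, were found at 3 of the 36 starts (Adra2a, Ddc and Tph2), and at 12.6% of all starts. CGCGCG was found at 5 of the 36 (Adrb1, Drd2, Htr2a, Htr6 and Htr7), and at 15.2% of all starts.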
